A study of Mus musculus with 14 samples.

Results

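The erythroid lineage transcription factors and their cofactors were followed as a set of 10 genes. These were Gata1, Gata2, Klf1, Zfpm1, Tal1, Gfi1b, Nfe2, Lmo2, Ldb1 and Bcl11a, chosen by name with earlier results of these data known. They are 10 of the 38926 genes listed by symbol in the LSK and MyePro libraries and, by Ensembl ID, 10 of the 39179 genes of the LT-HSC libraries, and all 10 were found in every RNA library. The series addressed how loss of Dpy30, a common subunit of the enzyme complexes (SET1, MLL) that methylate histone H3 at lysine 4, changes gene expression in mouse blood stem and progenitor cells. KO donors were Mx1-Cre; Dpy30F/- (1 floxed and 1 null allele) and control donors Mx1-Cre; Dpy30F/+ (1 floxed and 1 wild-type allele), so the controls also carried Mx1-Cre and lose 1 copy of Dpy30 when Cre acts. Cre was driven by the interferon-responsive Mx1 promoter, which is not restricted to blood cells. Donor marrow (CD45.2+) was transplanted with C57Bl/6J competitor marrow (CD45.1+) into irradiated CD45.1+ recipients, all recipients received pIpC at 7.5 µg/g 4 times over 10 days from 7 weeks after transplantation, and marrow was taken 2 weeks after the last injection. LSK cells (lineage-negative, Sca-1+, Kit+, which include stem cells and early multipotent cells) and the later MyePro cells gave 1 KO and 1 control library each, pooled from 2 to 3 mice. LT-HSCs (long-term hematopoietic stem cells) gave 2 KO and 2 control libraries, 1 of each per transplant, pooled from 7 to 9 mice and amplified before sequencing. The labels name the LT-HSCs as donor-derived and give neither a donor gate for LSK and MyePro cells nor the MyePro gate.

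On GRCm38.p6 the RefSeq gene bodies lie at chrX:7959260-7976663 (Gata1), chr6:88193891-88207032 (Gata2), chr8:84901982-84905291 (Klf1), chr8:122281856-122337862 (Zfpm1) and chr4:115056426-115071755 (Tal1). The others lie at chr2:28609450-28621982 (Gfi1b), chr15:103248212-103258403 (Nfe2), chr2:103957903-103981878 (Lmo2), chr19:46031525-46048145 (Ldb1) and chr11:24076564-24173558 (Bcl11a).

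GATA2 is the GATA factor of stem cells, mast cells and early progenitors, and GATA1 replaces it on shared DNA sites as cells enter the erythroid and megakaryocytic lineages. GATA factors work in a complex in which LMO2 bridges the bHLH factor TAL1 and the GATA factor, and LDB1 joins such assemblies and so brings distant enhancers to promoters. KLF1 binds CACC boxes and switches on globin, red cell membrane and heme genes. In bulk samples of this kind, fewer cells of a type and less RNA per cell cannot be told apart.

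The promoters of the 4 members that were at least 2-fold lower in CPM in the KO library of LSK or MyePro cells are shown because these were the members with the widest gaps. Each is the RefSeq window of GRCm38.p6 from 250 bases before to 50 bases after a transcription start, read 5′ to 3′ on the gene's strand. Capitals mark 2 motifs, searched on either strand. The GATA motif is AGATAA, or its variant with a last G (AGATAG), or the forms with a first T in place of A, which are TGATAA and, with a last G, TGATAG. The CACC-type motif is CCNCNCCC, whose matches can overlap each other.
Klf1 (chr8:84901732-84902031, + strand): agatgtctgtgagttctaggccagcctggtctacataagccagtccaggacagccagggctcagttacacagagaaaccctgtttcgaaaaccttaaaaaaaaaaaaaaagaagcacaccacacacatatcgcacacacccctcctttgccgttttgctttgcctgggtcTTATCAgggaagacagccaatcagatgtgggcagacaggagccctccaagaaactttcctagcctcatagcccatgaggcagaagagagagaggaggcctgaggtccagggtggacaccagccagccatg
Gata1 (chrX:7967861-7968160, - strand): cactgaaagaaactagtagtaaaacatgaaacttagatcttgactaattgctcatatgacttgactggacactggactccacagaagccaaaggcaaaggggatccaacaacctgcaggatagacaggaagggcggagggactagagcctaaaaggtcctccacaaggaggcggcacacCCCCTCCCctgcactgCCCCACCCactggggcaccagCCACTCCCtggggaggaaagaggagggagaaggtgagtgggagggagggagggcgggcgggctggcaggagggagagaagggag
Gfi1b (chr2:28621933-28622232, - strand): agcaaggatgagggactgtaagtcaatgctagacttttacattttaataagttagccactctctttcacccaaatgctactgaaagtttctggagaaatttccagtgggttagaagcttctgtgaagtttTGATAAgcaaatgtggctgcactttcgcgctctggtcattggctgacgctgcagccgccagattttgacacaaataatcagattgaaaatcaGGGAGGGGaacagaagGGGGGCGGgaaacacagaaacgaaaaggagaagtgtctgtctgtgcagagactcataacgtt
Bcl11a (chr11:24080445-24080744, + strand): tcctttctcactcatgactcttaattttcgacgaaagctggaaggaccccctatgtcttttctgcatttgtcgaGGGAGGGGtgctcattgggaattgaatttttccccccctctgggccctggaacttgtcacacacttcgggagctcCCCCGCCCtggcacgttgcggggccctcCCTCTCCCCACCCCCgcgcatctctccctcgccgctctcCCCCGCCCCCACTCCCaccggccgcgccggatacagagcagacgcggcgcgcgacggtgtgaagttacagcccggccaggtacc
The Klf1 window held 1 GATA match, TTATCA with its first base at -80 from the start, and 0 CACC-type matches. The Gfi1b window held 1 GATA match, TGATAA at -120, and 2 CACC-type matches. The Gata1 and Bcl11a windows held 0 GATA matches, and 3 and 8 CACC-type matches. Of all 32851 windows in the promoter table, 29.8% held a GATA match and 49.5% a CACC-type match. RefSeq windows were matched for 8 of the 10 members (12 windows, 4 of them with a GATA match and 10 with a CACC-type match), and Nfe2 and Lmo2 had no entry. G and C made up 51.3% of the Klf1 window, 57.3% of the Gata1, 44.3% of the Gfi1b and 63.0% of the Bcl11a window, against a median of 52.7% over all windows.

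Gene counts ran from 6130320 (KO LSK) to 20820762 (control MyePro) in the libraries that were not amplified, and from 38060087 (control LT-HSC 2) to 85499797 (KO LT-HSC 1) in LT-HSC. Levels below are CPM, counts per 1000000 gene counts after TMM scaling, which was done separately for the LT-HSC libraries, so levels in LT-HSC and in the other cells are not on 1 scale. Dpy30 itself stood at 42.3 CPM in KO LSK and 78.0 CPM in control LSK, and at 51.8 CPM in KO MyePro and 114 CPM in control MyePro. In LT-HSC it stood at 14.1 and 4.67 CPM in the libraries labelled KO, against 12.9 and 8.43 CPM in control, so the library labelled KO of transplant 1 was not lower in its targeted gene on this scale. With library totals it was lower, at 8.18 CPM against 15.6 CPM in control LT-HSC 1 (5.88 against 9.59 CPM in transplant 2). TMM took the 85499797 gene counts of KO LT-HSC 1 as an effective 49602278, and the 38473360 of control LT-HSC 1 as 46328480. Compared with TMM, library totals thus shift every gene toward a lower KO level in transplant 1, so the lower Dpy30 value there is not particular to Dpy30. Every LT-HSC direction given here is drawn from libraries labelled KO and control. Among the markers of the populations, Ly6a (Sca-1) stood at 62.1 CPM in KO LSK and 31.5 CPM in control LSK, against 11.5 CPM in KO MyePro and 4.77 CPM in control MyePro. Mpo, a gene of myeloid progenitors, was higher in MyePro than in LSK cells of either genotype (2120 against 996 CPM in KO, 6408 against 2027 CPM in control). Hlf and Mecom, stem cell factors, were present in all 4 LT-HSC libraries (119 to 291 CPM and 47.4 to 87.5 CPM). In LSK 3 of 4 such markers were at least 2-fold lower in KO, against 5.37% of the genes whose mean reached 5 CPM. Hlf stood at 45.2 CPM in KO and 194 CPM in control, Mecom at 10.4 against 41.5 CPM and Slamf1 at 6.05 against 14.3 CPM. The part of this in the LSK differences below was not tested.

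**Figure D1:**
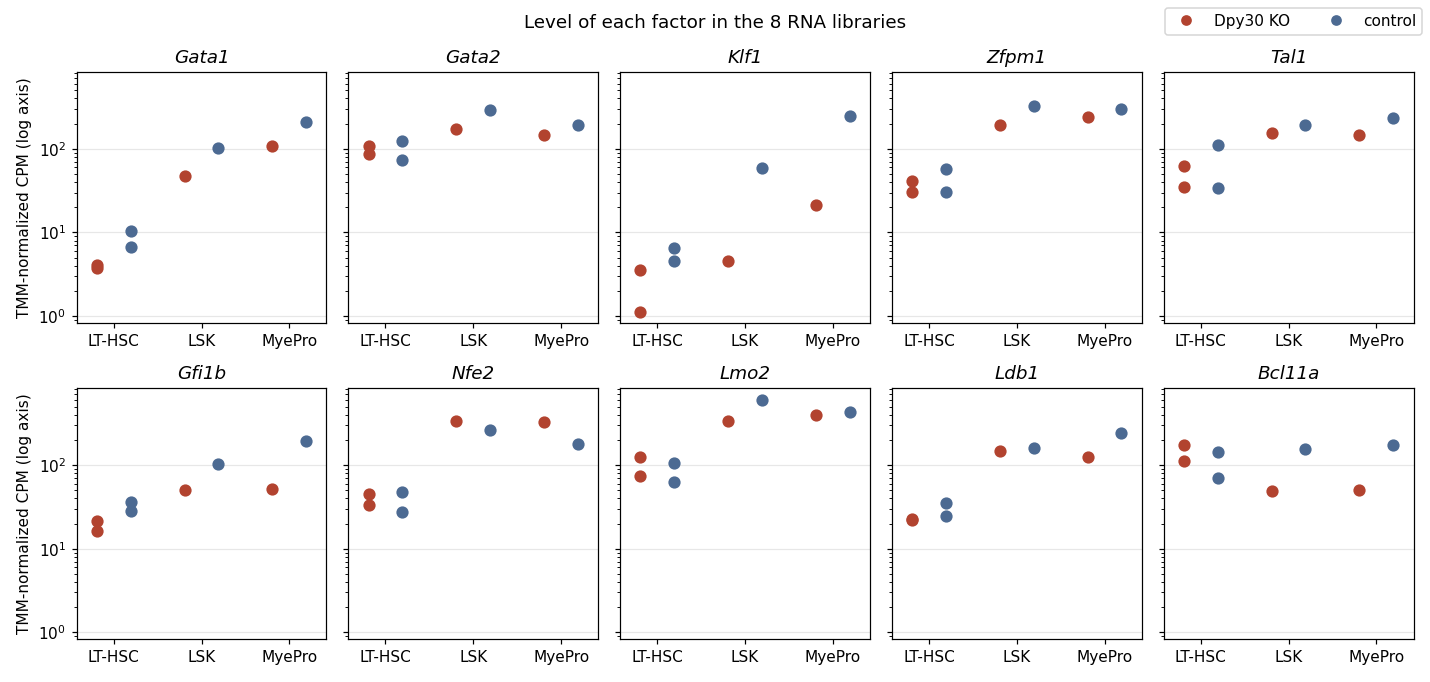
TMM-normalized CPM (log axis) of the 10 factors in the 8 RNA libraries, KO in red left of control in blue, 1 point per library. Klf1 shows the widest gap between KO and control in LSK (4.54 against 59.1 CPM) and MyePro (21.3 against 248 CPM), and levels of different genes are not comparable, since gene length is not divided out.

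The comparison of KO with control LSK and MyePro cells asked whether the erythroid regulators change with Dpy30. Klf1 was lower in the KO library by more than 10-fold in both populations, Gata1, Gfi1b and Bcl11a by about 2- to 4-fold, and Nfe2 was the only member higher in KO in both. In LSK, 3 of the 10 members were at least 2-fold lower (Klf1, Bcl11a and Gata1), against 5.37% of the 10311 genes whose mean reached 5 CPM, and 0 were at least 2-fold higher, against 4.98%. In MyePro, 3 were at least 2-fold lower (Klf1, Gfi1b and Bcl11a), against 7.99% of 10244 genes, and 0 were higher, against 11.3%. The members' median log2 ratio was -0.81 in LSK and -0.81 in MyePro, where the medians over all genes were -0.04 and -0.08. All 10 members reached the minimum of 5 CPM. Klf1 in LSK reached it through the control library alone and so could only be lower there. Of the 9 members that reached it in both LSK libraries, 2 were at least 2-fold lower and 0 higher. With 1 library per group there is no replicate check and no p-value, and the 95% intervals below cover counting error only. The ratios carry a prior count of 2.

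Klf1 held 30 counts in KO LSK (4.54 CPM) and 869 in control LSK (59.1 CPM). The log2 ratio was -3.65 (interval -4.28 to -3.18), the 31st lowest of the 10311 genes, and the KO level was 7.68% of control. In MyePro the KO library held 242 counts (21.3 CPM) and the control library 4944 (248 CPM). There the log2 ratio was -3.53 (interval -3.73 to -3.36), the 19th lowest of 10244 genes, and the KO level was 8.59% of control. The KO deficit of Klf1 thus had nearly the same size in the early and the later population, with overlapping intervals.

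Of the GATA factors, Gata1 stood at 47.5 CPM in KO LSK and 102 CPM in control LSK, a log2 ratio of -1.11 (interval -1.29 to -0.93). The MyePro levels were 107 CPM in KO and 207 CPM in control (log2 ratio -0.95, interval -1.04 to -0.86), just within 2-fold. With library totals in place of TMM the LSK ratio was -0.97, also within 2-fold, and the count of members at least 2-fold lower in LSK was then 2. Gata2 differed less: it stood at 172 CPM in KO LSK and 292 CPM in control LSK (log2 ratio -0.76), and at 147 CPM in KO MyePro and 190 CPM in control MyePro (-0.37). Zfpm1, which encodes FOG1, the cofactor that GATA1 needs in red cells and megakaryocytes, had log2 ratios of -0.79 in LSK (190 against 328 CPM) and -0.31 in MyePro (240 against 297 CPM).

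The members of the bridging complex were all lower in KO but within 2-fold, and they differed in which population showed the larger gap. Lmo2 stood at 340 CPM in KO LSK and 606 CPM in control LSK (log2 ratio -0.83, interval -0.90 to -0.77), against a MyePro ratio of -0.14 (391 against 431 CPM, interval -0.20 to -0.09). Ldb1 did the reverse, with 147 CPM in KO LSK and 160 CPM in control LSK (-0.12, interval -0.23 to -0.02) and 125 CPM in KO MyePro and 244 CPM in control MyePro (-0.96, interval -1.05 to -0.88). The small Ldb1 difference in LSK changed sign with library totals (0.01). Tal1 had log2 ratios of -0.35 in LSK (153 against 194 CPM) and -0.68 in MyePro (147 against 235 CPM).

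Gfi1b, a zinc finger repressor needed for red cells and platelets, stood at 51.0 CPM in KO LSK and 102 CPM in control LSK. Its log2 ratio of -0.999 was just short of 2-fold, and it passed with a prior count of 0.5, which gave 4 members in place of 3. The MyePro levels were 52.1 CPM in KO and 192 CPM in control, a log2 ratio of -1.88 (interval -2.01 to -1.76). Bcl11a, which silences embryonic and fetal globin genes in red cells and is also needed for B cells, stood at 49.3 CPM in KO LSK and 156 CPM in control LSK (log2 ratio -1.66, interval -1.83 to -1.49). Its MyePro levels were 50.4 CPM in KO and 175 CPM in control (-1.79, interval -1.92 to -1.66). For both repressors the difference between KO MyePro and KO LSK was within counting error.

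Nfe2 encodes the large subunit of NF-E2, which pairs with a small MAF protein and is required for platelet formation in mice. It stood at 338 CPM in KO LSK and 266 CPM in control LSK (log2 ratio 0.35, interval 0.27 to 0.42), and at 331 CPM in KO MyePro and 179 CPM in control MyePro (0.89, interval 0.82 to 0.96). It was above control in both populations, and within 2-fold in each.

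**Figure D2:**
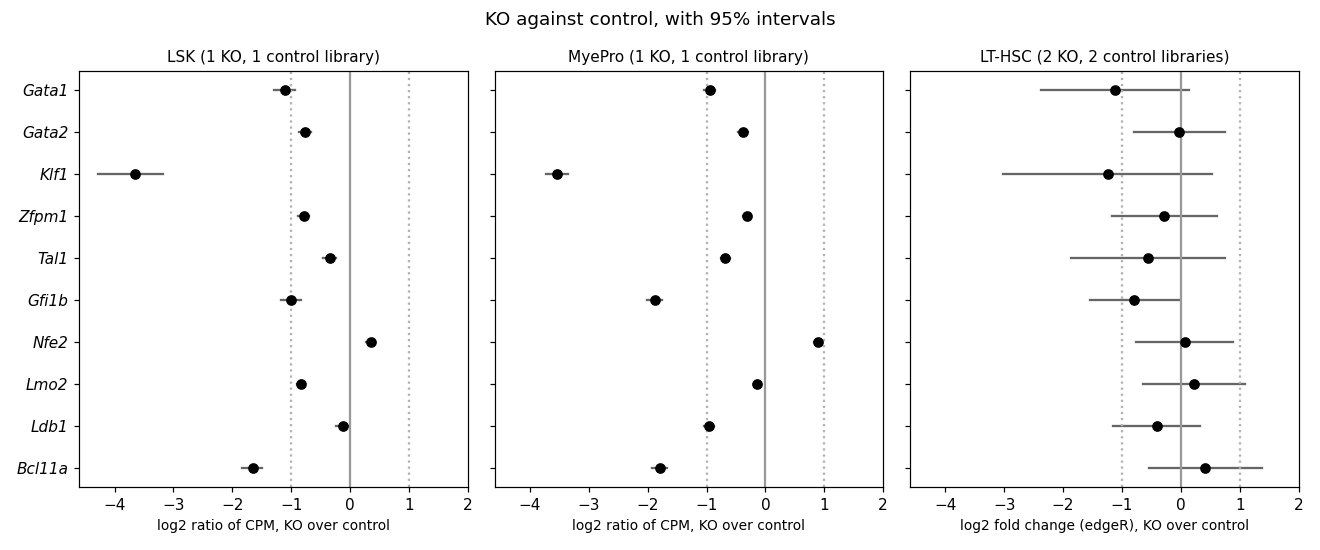
KO over control on a log2 scale (horizontal axis) for the 10 factors in LSK, MyePro and LT-HSC, with dotted lines at 2-fold. The bars are 95% counting intervals in LSK and MyePro (1 library per group) and 95% intervals of the edgeR fit in LT-HSC (2 per group), and Klf1 lies at -3.65, -3.53 and -1.25.

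In LT-HSC the same comparison had 2 libraries per group, and no member passed the test. With p-values adjusted by Benjamini-Hochberg, edgeR's quasi-likelihood test called 0 of the 10 members (adjusted p = 0.999 for each), where 0% of the 12844 genes tested were called higher and 0.0156% lower. DESeq2 also called 0 of the 10. At an unadjusted p under 0.05, 1 member (Gfi1b) was lower, against 1.28% of all genes, and 0 were higher, against 1.01%. For 4 members (Gata1, Klf1, Gfi1b and Ldb1) the KO values were both under the 2 control values, against 13.9% of all genes, and for 0 members both over them, against 13.8%. The median log2 fold change of the members was -0.35, with 7 of 10 negative, and 49.7% of all genes were negative. Without control LT-HSC 1, 4 of the 10 were negative. With library totals all 10 were, where the median of all genes was itself -0.35.

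Gata1 stood at 4.07 and 3.79 CPM in KO LT-HSC 1 and 2, against 6.71 and 10.3 CPM in control LT-HSC 1 and 2. This is a log2 difference of -1.12 ± 0.529 (SE, 2 libraries per group), with an interval of -2.37 to 0.13 (edgeR adjusted p = 0.999). With TMM scaling the KO libraries lay close together and below the controls, which were spread over the wider range. With library totals the KO libraries were still below the controls but not close together (2.36 and 4.77 CPM in KO, 8.08 and 11.7 CPM in control). Klf1 stood at 3.53 and 1.130 CPM in KO, against 6.45 and 4.58 CPM in control (log2 fold change -1.25 ± 0.751, SE, n = 2 per group; edgeR adjusted p = 0.999). It moved more in transplant 2 (-2.02) than in transplant 1 (-0.87) with TMM scaling. Leaving out KO LT-HSC 2 gave -0.64 for Klf1, and leaving out KO LT-HSC 1 gave -2.28. Klf1 levels with library totals were 2.05 CPM in KO against 7.77 CPM in control in transplant 1, and 1.42 against 5.202 CPM in transplant 2. On that scale the gap was not wider in transplant 2. Compared with TMM, library totals shift every gene toward a lower KO level in transplant 1, so this change is not particular to Klf1.

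Gfi1b stood at 21.5 and 16.1 CPM in KO LT-HSC, against 36.5 and 28.4 CPM in control. The difference on the log2 scale came to -0.79 ± 0.320 (SE, 2 libraries per group; edgeR unadjusted p = 0.0434, adjusted p = 0.999). With TMM scaling the pairs moved nearly alike, by -0.76 in transplant 1 and -0.82 in transplant 2. With library totals the gap was wider in transplant 1 (12.5 CPM in KO against 43.9 CPM in control) than in transplant 2 (20.3 against 32.3 CPM). That scale shifts every gene toward a lower KO level in transplant 1 compared with TMM, so the widening is not particular to Gfi1b. Ldb1 stood at 22.9 and 22.1 CPM in KO and 35.1 and 24.7 CPM in control (-0.41 ± 0.312). For the other 6 members the groups overlapped. Tal1 stood at 62.8 and 34.8 CPM in KO and 110 and 34.1 CPM in control, with a difference of -0.80 in transplant 1 and 0.03 in transplant 2.

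Gata2 was close in the groups, at 107 and 87.3 CPM in KO LT-HSC and 125 and 72.6 CPM in control (log2 fold change -0.02, interval -0.79 to 0.74). Zfpm1 stood at 41.7 and 30.7 CPM in KO and 58.0 and 30.2 CPM in control (-0.28, interval -1.17 to 0.61), and Nfe2 at 44.9 and 33.7 CPM in KO and 47.5 and 27.5 CPM in control (0.07, interval -0.76 to 0.89). Lmo2 stood at 124 and 74.9 CPM in KO and 106 and 63.2 CPM in control (0.23, interval -0.63 to 1.10). Bcl11a stood at 174 and 112 CPM in KO LT-HSC and 145 and 69.1 CPM in control, a log2 fold change of 0.42 (interval -0.54 to 1.38). These intervals reach at least 1.5-fold in some direction for each of the 5 genes, so equal levels are not shown. The Bcl11a interval does not reach the ratios of -1.66 and -1.79 seen in LSK and MyePro, though the difference between populations was not tested.

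The balance of Gata1 to Gata2 can be read within a library as a ratio of counts, which needs no scaling between libraries. It was 0.276 in KO LSK (interval 0.243 to 0.313) and 0.350 in control LSK (0.330 to 0.372), and 0.730 in KO MyePro (0.677 to 0.786) and 1.09 in control MyePro (1.04 to 1.14). The KO ratio was lower in each population beyond counting error, and it still increased from KO LSK to KO MyePro. In LT-HSC it was 0.0382 and 0.0434 in KO and 0.0539 and 0.142 in control, with both KO libraries below both controls. Klf1 counts per Gata2 count set the genotypes further apart, at 0.0264 in KO LSK and 0.202 in control LSK, and 0.145 in KO MyePro and 1.30 in control MyePro. On this measure KO MyePro lay below control LSK. The LT-HSC values were 0.0331 and 0.0129 in KO and 0.0518 and 0.0630 in control.

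**Figure D3:**
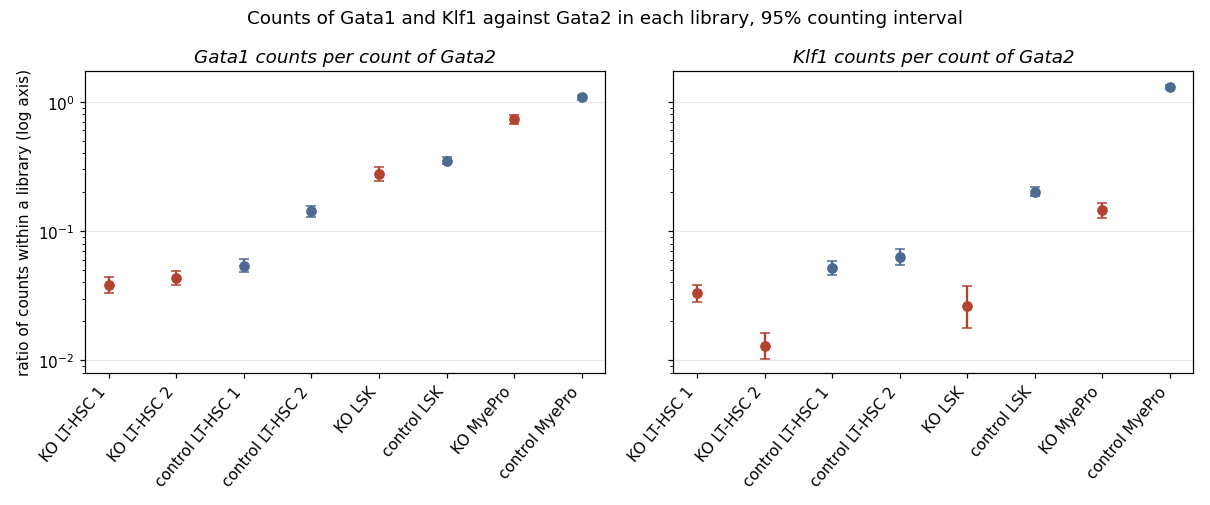
Counts of Gata1 (left) and Klf1 (right) per count of Gata2 within each library on a log axis, KO in red and control in blue, with 95% counting intervals. Gata1 per Gata2 is 0.730 in KO MyePro and 1.09 in control MyePro, and Klf1 per Gata2 is 0.145 in KO MyePro and 1.30 in control MyePro.

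The step from LSK to MyePro cells was compared within each genotype, KO and control. Gata1 and Klf1 were the members at least 2-fold higher in MyePro in either genotype. In KO these were 2 of 10, against 3.12% of 10360 genes, with 0 at least 2-fold lower, against 1.52%. In control they were also 2 of 10, against 3.03% of 10059 genes, with 0 lower, against 7.24%. All 10 members reached the 5 CPM minimum in both control libraries. In KO, Klf1 reached it through the MyePro library alone and so could only be higher there. Of the 9 members that reached it in both KO libraries, 1 (Gata1) was at least 2-fold higher. The KO and control steps each share their libraries with the comparisons above. Gata1 was 2.26-fold higher in KO MyePro than in KO LSK (107 against 47.5 CPM, log2 ratio 1.17, interval 1.00 to 1.36), and 2.02-fold higher in control MyePro than in control LSK (207 against 102 CPM, 1.02, interval 0.93 to 1.10). With library totals the control value for Gata1 fell short of 2-fold, which left 1 member in control. Klf1 was 4.70-fold higher in KO MyePro than in KO LSK (21.3 against 4.54 CPM, log2 ratio 2.18, interval 1.68 to 2.83), and 4.20-fold higher in control MyePro than in control LSK (248 against 59.1 CPM, 2.07, interval 1.97 to 2.18). The gain of both genes between the populations therefore had overlapping intervals in KO and control, from a lower starting level in KO.

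For the other members the steps in KO and control are given side by side, and their difference was not tested. Gfi1b was close to level between KO MyePro and KO LSK (52.1 against 51.0 CPM, log2 ratio 0.03, interval -0.16 to 0.23, and -0.10 with library totals), whereas control MyePro stood above control LSK (192 against 102 CPM, 0.91, interval 0.83 to 1.00). Nfe2 was level in KO (331 against 338 CPM, -0.03) and lower in control MyePro than in control LSK (179 against 266 CPM, -0.57). Gata2 was lower in MyePro in both genotypes, with a log2 ratio of -0.23 in KO and -0.62 in control. Tal1 had -0.06 in KO and 0.27 in control, and Bcl11a 0.03 in KO (-0.10 with library totals) and 0.17 in control. For Zfpm1, Lmo2 and Ldb1 the sign of the step differed, at 0.34, 0.20 and -0.23 in KO and at -0.14, -0.49 and 0.61 in control. Over the 10 members the log2 ratios spanned -0.23 to 2.18 in KO and -0.62 to 2.07 in control.

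**Figure D4:**
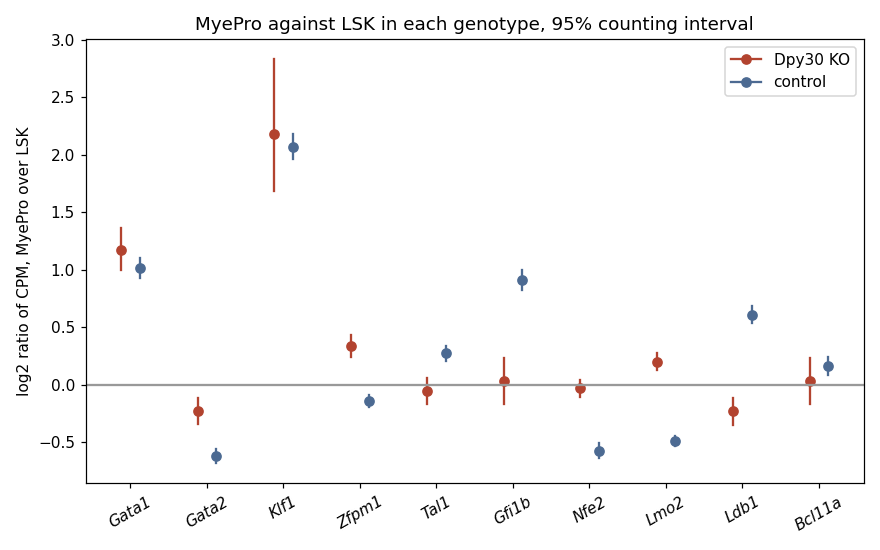
Log2 ratio of CPM, MyePro over LSK, for each factor in KO (red) and control (blue), with 95% counting intervals and 1 library per point of the ratio. Klf1 (2.18 and 2.07) and Gata1 (1.17 and 1.02) lie high in both genotypes, while Gfi1b lies at 0.03 in KO and 0.91 in control.

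The genes whose profiles over the 4 LSK and MyePro libraries lay closest to a member were found by Euclidean distance between centred log2 CPM, among 9772 candidates that reached the 5 CPM minimum. Closest to Klf1 were Epx (distance 0.364), the eosinophil peroxidase gene, Abcb4 (0.390) and Tifab (0.3997). Abcb4 stood at 4.99 CPM in KO LSK, 61.0 CPM in control LSK, 25.3 CPM in KO MyePro and 204 CPM in control MyePro, and Epx at 0.302, 5.64, 2.64 and 23.9 CPM in the same libraries. Closest to Gata1 were Wdr60 (0.141), Slc12a4 (0.251) and Samd14 (0.294), with Samd14 at 21.9, 52.3, 64.2 and 97.5 CPM. Among the nearest to Gata2 were Map4k1 (0.0897) and Pik3ip1 (0.102). Distances over 4 libraries are a description.

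Genes around the 10 factors were read from lists of the same pathway. Of 21 partners and coregulators of the complex, all above the minimum, 1 was at least 2-fold lower in KO LSK (Gatad2b, of the NuRD complex, 8.92 against 22.6 CPM) and 0 were higher, close to the 5.37% of all genes that were lower. In MyePro 3 were lower, Tcf3 (125 against 285 CPM), which encodes the E proteins that pair with TAL1, Gatad2b and Ssbp3, a binding partner of LDB1 (81.9 against 169 CPM), and 0 were higher, where 7.99% of all genes were lower. Their median log2 ratios were -0.21 in LSK and -0.42 in MyePro. Of 14 other erythroid regulators, 2 were lower and 0 higher in LSK, and 4 lower and 1 higher in MyePro. Over all genes 5.37% were lower and 4.98% higher in LSK, and 7.99% and 11.3% in MyePro. Epor in LSK reached the minimum through control alone and Sox6 in MyePro through KO alone, so their directions there were fixed. Of the 13 that reached it in both libraries, 1 was lower and 0 higher in LSK, and 4 lower and 0 higher in MyePro. Epor, the erythropoietin receptor gene, stood at 3.02 CPM in KO LSK and 27.8 CPM in control LSK, and at 17.0 CPM in KO MyePro and 90.9 CPM in control MyePro. Nfia stood at 9.98 against 33.6 CPM in LSK and 20.6 against 88.2 CPM in MyePro, Klf3 at 13.7 against 40.3 CPM in MyePro, and Sox6, the higher one, at 17.4 against 4.77 CPM in MyePro.

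Red cell structural and membrane genes were mostly lower in KO. The heme gene Alas2 stayed under the 5 CPM minimum, at 1.06 CPM in KO LSK and 0.204 CPM in control LSK. Its MyePro levels were 1.76 CPM in KO and 0.702 CPM in control. Of 22 listed genes found in the LSK and MyePro files, 17 reached the minimum in each comparison. In LSK 12 were at least 2-fold lower in KO and 0 higher (median log2 ratio -3.20, also -3.20 with the 2 genes at 0 in KO placed at their floor of 3 counts per library). In MyePro 16 were lower and 0 higher (median -2.90). The shares over all genes were 5.37% lower and 4.98% higher in LSK, and 7.99% and 11.3% in MyePro. Ank1, the ankyrin gene of the red cell membrane, stood at 6.78 CPM in KO MyePro and 111 CPM in control MyePro, and Add2 at 5.72 against 89.2 CPM. Pklr, the red cell pyruvate kinase gene, stood at 8.27 against 161 CPM in MyePro and at 0 against 33.7 CPM in LSK, at least 74.3-fold lower against that floor. In LSK 10 of the 17, Pklr among them, reached the minimum through the control library alone and so had to be lower in KO, and of the other 7, 2 were at least 2-fold lower. In MyePro all 17 reached it in both libraries. In LT-HSC all 20 tested members of the list had negative values (median -1.13), against 49.7% of all 12844 genes, and 0 passed the edgeR test. Tmod1, Trim10 and Rhd reached the filter of 1 CPM, taken on library totals, in the control libraries alone. The filter thus favored a lower KO level for these genes. The smallest unadjusted p-values belonged to Tmod1 (0.484 and 0.690 CPM in KO, 6.95 and 3.096 CPM in control, log2 fold change -3.09, edgeR unadjusted p = 0.00690, adjusted p = 0.999) and Sptb (7.06 and 7.84 CPM in KO, 12.9 and 42.1 CPM in control, -1.88, edgeR unadjusted p = 0.0128, adjusted p = 0.999).

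Globin genes and platelet genes were set apart from the red cell list. Globin levels were low, and of the 2 globin genes above the minimum in LSK and the 3 in MyePro, 1 (Hbb-bt in LSK) reached it in both libraries, so the higher KO level of the others was fixed by the minimum. The adult beta-globin genes Hbb-bs and Hbb-bt, which could share reads, stood at 12.2 and 14.4 CPM in KO LSK, against 2.04 and 5.30 CPM in control LSK, and at 36.6 and 15.3 CPM in KO MyePro, against 2.36 and 1.61 CPM in control MyePro. Of 17 megakaryocyte genes, 15 reached the minimum in LSK, with 4 higher and 2 lower in KO, and 16 in MyePro, with 14 higher and 0 lower (median log2 ratio 3.18). Of those that reached the minimum in both libraries, 2 of 13 were higher and 2 lower in LSK, and 11 of 13 higher and 0 lower in MyePro. The integrin gene Itgb3 stood at 362 CPM in KO MyePro and 18.6 CPM in control MyePro, and Ppbp at 78.4 against 0.702 CPM. In LSK the lower ones included Vwf, at 9.98 CPM in KO and 92.9 CPM in control. Nfe2 was the factor that was higher with them, while Gata1, Gfi1b, Zfpm1 and Tal1, which also serve megakaryocytes, were lower. Of the mast cell and basophil genes, 4 were higher and 3 lower of 7 in LSK, and 3 higher and 3 lower of 8 in MyePro. Of those that reached the minimum in both libraries, 4 were higher and 1 lower of 5 in LSK, and 3 higher and 2 lower of 7 in MyePro. Over all genes 4.98% were higher and 5.37% lower in LSK, and 11.3% and 7.99% in MyePro. Fcer1a stood at 355 CPM in KO MyePro and 22.98 CPM in control MyePro, and Prg2 at 10.1 against 105 CPM. In LT-HSC 0 members of these lists passed the edgeR test.

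**Figure D5:**
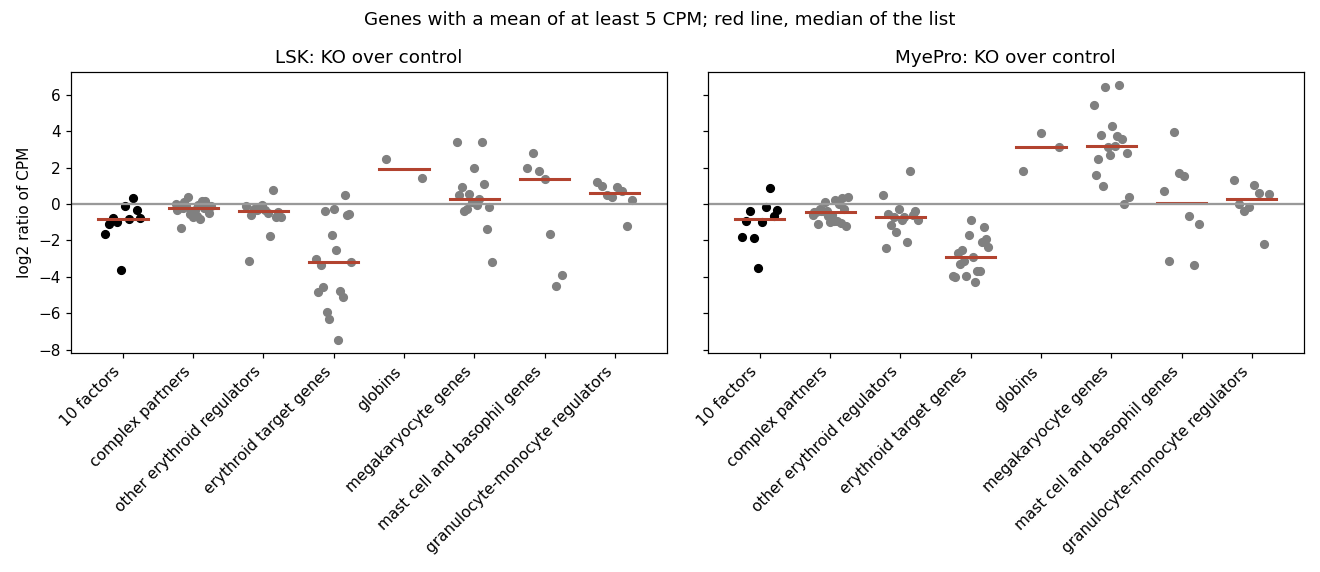
Log2 ratio of CPM, KO over control, in LSK (left) and MyePro (right) for the 10 factors (black) and for listed genes of the pathway and of other lineages (grey) above the minimum of 5 CPM, 1 point per gene and a red line at each list's median. The 10 factors have a median of -0.81 in each population, red cell target genes -3.20 and -2.90, and megakaryocyte genes 0.28 and 3.18.

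Markers of mature cells that lineage depletion should remove moved with genotype too. Summed over 9 neutrophil genes, the level was 172 CPM in KO LSK and 11.6 CPM in control LSK, and 618 CPM in KO MyePro and 26.4 CPM in control MyePro. Lcn2, S100a8 and S100a9 made up most of the KO sums and were the 3 of 9 whose mean reached the minimum. S100a8 and S100a9 stood at 60.3 and 14.5 CPM in KO LSK, and S100a9 at 64.3 against 0.702 CPM in MyePro. In both libraries the minimum was reached by Lcn2 in LSK (94.2 CPM in KO, 9.04 CPM in control) and by Lcn2 and S100a8 in MyePro (315 against 13.4 CPM and 228 against 9.18 CPM). Ltf and Mmp9 were at 0 in KO LSK, S100a8, S100a9 and Retnlg at 0 in control LSK, and Camp at 0 in both MyePro libraries. The 7 macrophage genes summed to 220 CPM in KO LSK and 92.1 CPM in control LSK, and to 357 CPM in KO MyePro and 51.4 CPM in control MyePro, with none at 0. Of the macrophage genes that reached the minimum in both libraries, 4 of 5 were at least 2-fold higher in KO LSK and 3 of 3 in KO MyePro. The shares over all genes were 4.98% and 11.3%. The 8 T and NK cell genes summed to 36.7 CPM in KO LSK and 13.9 CPM in control LSK, and to 29.6 CPM in KO MyePro and 2.01 CPM in control MyePro. Klrb1c made up most of the KO sums (27.8 against 0.883 CPM in LSK, 17.8 against 0.151 CPM in MyePro), and Lck was lower in KO LSK (3.93 against 11.7 CPM). Cd3d was at 0 in KO LSK and Cd3g in KO MyePro, while control LSK had 0 for Cd3e, Cd3g and Gzma and control MyePro 0 for Gzma and Ncr1. The 6 B cell genes summed to 2.42 CPM in KO LSK and 24.9 CPM in control LSK, and to 3.52 CPM in KO MyePro and 19.8 CPM in control MyePro, with Ms4a1 and Ebf1 at 0 in all 4 libraries. Of the 8 granulocyte-monocyte regulators, 2 were higher and 1 lower in KO in each population. Among all genes 4.98% were higher and 5.37% lower in LSK, and 11.3% and 7.99% in MyePro. Cebpa (162 against 69.9 CPM in LSK, 281 against 112 CPM in MyePro) was on the higher side and Irf8 (45.5 against 103 CPM, 48.4 against 218 CPM) on the lower. In LT-HSC the neutrophil genes summed to 154 and 235 CPM in KO and 68.2 and 329 CPM in control, and the MyePro markers Mpo, Elane and Prtn3 to 66.8 and 222 CPM in KO and 59.4 and 269 CPM in control, with overlapping groups. The part of these cells in the differences of the 10 factors was not tested.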

How the data were processed

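The report rests on the 8 RNA libraries of the 14 samples, and the 6 ChIP samples were not analysed here. For each library the authors deposited raw gene counts. Per the labels' protocols, polyA+ RNA was selected, and the RNA of LT-HSCs alone was amplified (Ovation kit, Nugen). Per the submitters' processing notes, the tools for the series included TopHat2, Picard 1.126 and HTSeq 0.6.0 with build mm10. Which annotation and strand option were used is not given in the sources used here; overlapping or antisense genes may have shared reads.

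Entries that name no gene, 92 spike-in entries and an unexplained entry (DPY30-SPKIG) were left out of library totals. Reads without a feature made up 2.40% to 6.25% of the LSK and MyePro files and 16.7% to 26.0% of the LT-HSC files, and mitochondrial ribosomal RNA took 45.1% to 62.4% of LT-HSC gene counts. Symbols were paired with 37607 of 39179 Ensembl IDs (96.0%).

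For LT-HSC counts the test was that of edgeR 4.0.16 under R 4.3.3 (TMM factors, a floor of 1 CPM reached by 2 or more libraries, quasi-likelihood test, two-sided, Benjamini-Hochberg adjusted p under 0.05), without a block. The labels give a transplant number, which pairs a KO with a control library. Paired libraries' deviations from the group means correlated at 0.285. Each library is a pool of mice, so p-values measure the spread between pools. For LSK and MyePro, log2 ratios used TMM-normalized CPM with a prior count of 2, a minimum mean of 5 CPM and a threshold of 2-fold, with exact binomial 95% intervals, which cover counting error only. The scripts were tested on simulated data. DESeq2 1.42.0, other size factors, filters and left-out libraries were tried as alternatives. The named genes are the 10 members, Dpy30, up to 4 genes per list past 2-fold with the largest ratios (up to 2 with the smallest p in LT-HSC), markers of the populations, and the 3 profiles nearest to Gata1, Klf1 and Gata2. 1 of these profiles is not reported here. The members and lists were chosen with earlier results of these data known. Sequences and positions are from RefSeq, GRCm38.p6.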

Additional observations from a re-analysis of the deposited data

Results flagged for a closer look

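The step from LSK to MyePro ran in opposite directions in KO and control for 3 members, in each case with 1 library per group and counting intervals clear of 0. Zfpm1 had a log2 ratio of MyePro over LSK of 0.34 in KO and -0.14 in control. Lmo2 had 0.20 in KO (0.07 with library totals) and -0.49 in control. Ldb1 had -0.23 in KO and 0.61 in control. These differences were not tested.

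For 2 members the KO difference in LT-HSC had the opposite sign to that in LSK and MyePro, though their LT-HSC groups overlapped. Lmo2 was higher in the KO library of both LT-HSC transplants (log2 ratios of 0.22 and 0.24) and lower in KO LSK (-0.83) and KO MyePro (-0.14). Bcl11a was higher in the KO library of both transplants (0.26 and 0.70) and lower in KO LSK (-1.66) and KO MyePro (-1.79). LT-HSC libraries were amplified and scaled apart, and neither difference was tested. With library totals the fitted LT-HSC values of both genes were below 0 (-0.27 for Lmo2 and -0.066 for Bcl11a).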

How the results depend on the processing

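No member passed the LT-HSC test under any alternative run. The median of all genes moved by over 0.1 with library totals in LSK (0.09 against -0.04), from KO LSK to KO MyePro (-0.13 against 0.00) and in LT-HSC (-0.35 against 0.00). Members at least 2-fold higher or lower in KO LSK, KO MyePro and from control LSK to control MyePro kept within 1.5 times the main counts with RLE size factors, a prior count of 0.5, a minimum of 1 CPM and thinned counts. At 1.5-fold, 7 members were lower in KO LSK, 6 lower and 1 higher in KO MyePro, and 4 higher and 1 lower from control LSK to control MyePro, and with library totals 1 was higher in that step. Over all genes, at 1.5-fold 1139 were higher and 1304 lower in KO LSK, 1989 and 2121 in KO MyePro, 898 and 1384 from LSK to MyePro in control, and 866 and 568 in KO. A minimum of 1 CPM gave 1114 higher and 939 lower in KO LSK, 2227 higher in KO MyePro, 458 and 1385 from LSK to MyePro in control, and 817 and 457 in KO.

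In LT-HSC, where edgeR called 0 genes higher and 2 lower, the replicate block by transplant called 1 higher and 3 lower and changed no other call, with 6 of 10 members negative and Gata2 at 0.021. DESeq2 called 5 higher and 9 lower, library totals 4 lower, ERCC totals 1 lower, and no filter 1 higher and 3 lower. Without 1 library, calls ran from 0 to 2 higher and from 0 to 3 lower. Members at an unadjusted p under 0.05 numbered 0 with library totals and with ERCC totals, and from 0 to 2 without 1 library. Negative members ran from 4 to 10 without 1 library and numbered 10 with library totals. Values that changed sign with library totals were Nfe2 (-0.37), Lmo2 (-0.27) and Bcl11a (-0.066), and with ERCC totals Nfe2 (-0.050). Without 1 library each, Gata2 ran from -0.35 to 0.43, Zfpm1 from -0.67 to 0.27, Tal1 from -1.16 to 0.53, Nfe2 from -0.26 to 0.52, Lmo2 from -0.18 to 0.66 and Bcl11a from -0.011 to 1.06. Gata1, Klf1, Gfi1b and Ldb1 stayed negative in LT-HSC in every alternative run. The causes of these changes were not tested. The depth of KO LSK, 30 counts for Klf1, limits the precision of its ratio.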
